A study of Mus musculus with 6 samples.

Results

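The genes described here encode the histone demethylases LSD1 (Kdm1a) and LSD2 (Kdm1b) and proteins that work with LSD1 in the CoREST complex. They are the 10 genes Kdm1a, Kdm1b, Rcor1, Rcor3, Hdac1, Hdac2, Phf21a, Gse1, Zmym2 and Rreb1, taken by gene symbol from a liver RNA-seq table of 27179 genes, of which 18442 had a mean level above 0. Each symbol matched 1 gene, and all 10 had a level above 0. Poly-A RNA of the liver was taken from 6 C57BL/6 mice, 3 Control and 3 LSD1-LKO. All 6 carried the LSD1-lox/lox allele and received an adeno-associated virus by tail vein at 6 to 7 weeks of age, AAV8-TBG-GFP in Control and AAV8-TBG-cre in LSD1-LKO. A high-fat diet followed 1 week later and lasted 12 weeks per the series text, but a shorter time per the study's methods, and which of these applies to the 6 livers is unclear. The TBG promoter acts in hepatocytes, so the other cells of an LSD1-LKO liver keep the gene. The labels give no sex, and the study's methods say that most experiments used males unless specified otherwise.

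LSD1 removes methyl groups from mono- and dimethylated lysine 4 of histone H3 and, in some settings, from lysine 9. In the CoREST complex it is held by an RCOR protein next to the deacetylases HDAC1 or HDAC2, so that acetyl and methyl marks of active chromatin are taken off together. LSD2 has a related catalytic domain but does not bind CoREST and works mostly in the bodies of transcribed genes. In the liver LSD1 is known for regulating metabolic genes.

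The deposited level of each gene is 1 mean over all 6 livers, Control and LSD1-LKO together, so no value per liver, no spread and no test between the groups can be given from it. The fold changes and p-values in the same table are the authors' own comparison and are not reported here, and the deletion of Kdm1a in the LSD1-LKO livers was therefore not checked. Levels below are the authors' mean as CPM, the share of the summed means of all genes scaled to 1000000. To compare genes, CPM was divided by the median length of the gene's protein-coding transcripts in kb. All coordinates are on GRCm38, also known as mm10, with GENCODE vM21 gene models.

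All 10 genes were measured at 1 CPM or more, as were 11899 of the 18442 genes above 0. Their median level was 17.7 CPM, beside 5.05 CPM for all genes above 0 and 16.8 CPM for the genes of at least 1 CPM. Per kb the median was 5.88 CPM per kb, beside 3.62 for the 15784 genes above 0 with a coding length and 8.14 for those of them at 1 CPM or more. The set was thus above the middle of all detected genes, and per kb below the middle of the genes with a coding length that passed 1 CPM. From Rreb1 down to Hdac1 the levels per kb differed by 9.78 times. Without a spread over livers, no step in this order was tested.

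**Figure D1:**
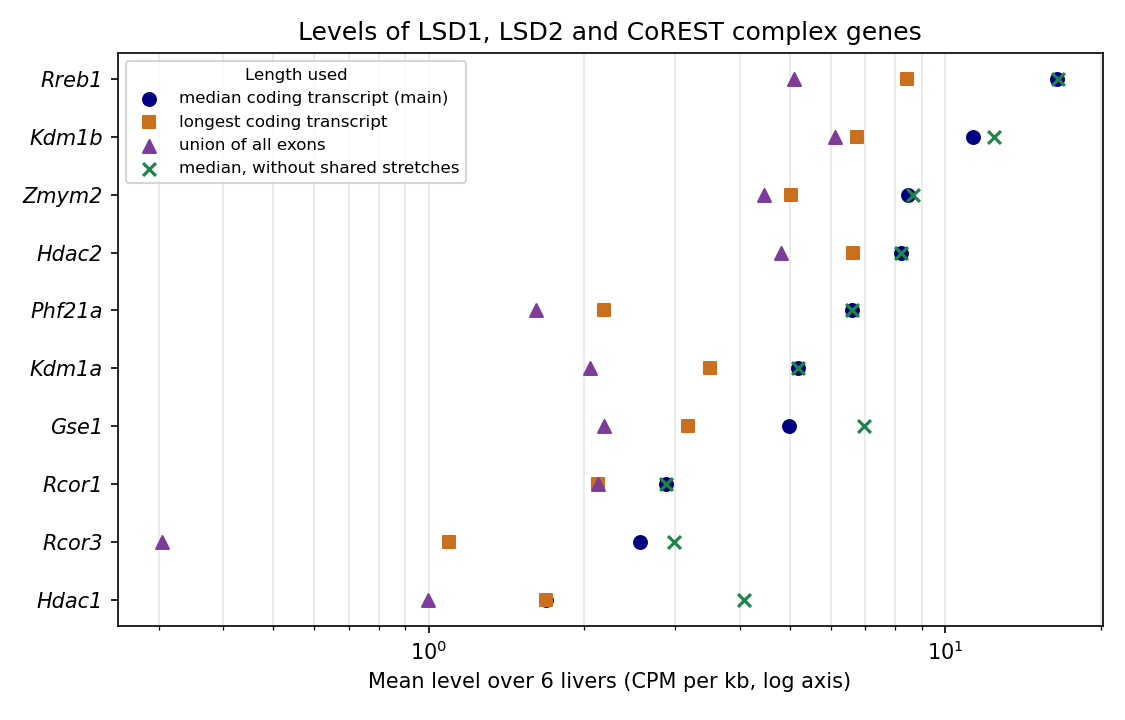
Mean level over 6 livers of the 10 genes in CPM per kb on a log axis, with 1 symbol for each way of measuring transcript length. By the median coding transcript, Rreb1 is highest at 16.5 and Hdac1 lowest at 1.68. On this axis Rcor3 moves most with the length used, from 2.98 without shared stretches to 0.305 by the union of exons.

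Between the demethylases, the pooled level of Kdm1b was above that of Kdm1a. Kdm1a (Entrez 99982, chr4:136550533-136602787, minus strand, 20 exons in its longest coding transcript) had a base mean of 219, or 10.6 CPM and 5.18 CPM per kb. Kdm1b (Entrez 218214, chr13:47043373-47085279, plus strand, 21 exons) had a base mean of 695, or 33.6 CPM and 11.3 CPM per kb. Kdm1b was thus 2.19 times Kdm1a per kb and 3.17 times without a correction for length, and it was the higher of the pair under every length tried. The mean for Kdm1a covers livers in which hepatocytes were given Cre as well as Control livers, so it is not the level of the intact gene, and the order of both genes within Control livers cannot be read from it. In the order of all 10 genes, Kdm1b ranked between 1 and 3 and Kdm1a between 5 and 8 across the lengths tried.

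Both coding sequences start with ATG and hold 873 codons in Kdm1a and 826 in Kdm1b. Aligned over 2195 bases they were identical at 62.6% of positions, and they share no stretch of 31 bases. Shown is the 60-base stretch within 1 exon and without gaps in that alignment that had the most identical bases, 39, because it lets the letters of both paralogs be compared. Capitals mark bases that are the same in both genes. The Kdm1a stretch is coding sequence in exon 20 (chr4:136550941-136551000, minus strand), and the Kdm1b stretch is coding sequence in exon 21 (chr13:47082878-47082937, plus strand).
Kdm1a: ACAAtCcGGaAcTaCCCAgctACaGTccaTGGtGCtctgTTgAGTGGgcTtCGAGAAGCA
Kdm1b: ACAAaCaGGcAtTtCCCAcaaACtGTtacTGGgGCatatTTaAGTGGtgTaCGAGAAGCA

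The study measured Lsd1 by qPCR with a primer pair that lies in the coding part of Kdm1a. The forward primer is in exon 7 (chr4:136572225-136572244) and the reverse primer in exon 8 (chr4:136570458-136570477), 109 bases apart end to end in the transcript. Both matched 4 of the 9 annotated Kdm1a transcripts and no other gene. They are shown because they give the position at which the targeted gene was assayed outside the sequencing.
Lsd1 forward primer: atggatgtcacacttctgga
Lsd1 reverse primer: caagacctgttacaaccatg

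The CoREST scaffolds carry SANT domains and bridge LSD1 to nucleosomes and deacetylases. By the median transcript, Rcor1 and Rcor3 were at similar low levels per kb, and Rcor2 was close to undetected. Rcor1 (Entrez 217864, chr12:111039367-111115902, plus strand, 12 exons) had a base mean of 249, or 12.1 CPM and 2.87 CPM per kb. Rcor3 (Entrez 214742, chr1:192098546-192138074, minus strand, 11 exons in its longest coding transcript) had a base mean of 85.8, or 4.15 CPM and 2.56 CPM per kb. Their ratio per kb was 1.12. Rcor1 was also the higher by the longest transcript (1.94 times), when all exons were counted (6.96 times) and without length (2.91 times). It was 0.965 times Rcor3 only when the length, but not the CPM, was reduced by the share of stretches found in other genes. That setting was chosen after seeing the data and takes the share over all coding transcripts. It is right only if no read from those stretches was counted and the share holds at the median length. Rcor2, the remaining paralog, had a base mean of only 1.36, or 0.0657 CPM. Per kb, Rcor1 and Rcor3 were 88.1 and 78.5 times Rcor2 by the median transcript. By the longest transcript they were 91.3 and 47.1 times Rcor2, and by the union of exons 102 and 14.7 times. With Rcor2 so near 0, these ratios are rough.

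Rcor1 and Rcor3 were identical at 72.9% of 1303 aligned coding bases and share no 31-base stretch. Their 60-base stretch chosen in the same way, in exon 5 of both (chr12:111097524-111097583, plus strand, in Rcor1 and chr1:192125899-192125958, minus strand, in Rcor3), differs at few positions, and it is shown for contrast with the demethylase pair. Capitals again mark the 54 identical bases.
Rcor1: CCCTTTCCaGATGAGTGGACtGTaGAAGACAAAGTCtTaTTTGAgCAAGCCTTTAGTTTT
Rcor3: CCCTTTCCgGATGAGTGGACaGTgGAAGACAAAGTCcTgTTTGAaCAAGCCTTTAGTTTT

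Of the deacetylases, Hdac2 was among the higher genes of the set and Hdac1 was the lowest per kb by the median transcript (rank 8 to 10 across the lengths tried). Hdac1 (Entrez 433759, chr4:129516104-129542646, minus strand, 14 exons) had a base mean of 70.9, or 3.43 CPM and 1.68 CPM per kb. Hdac2 (Entrez 15182, chr10:36974297-37001889, plus strand, 8 exons) had a base mean of 445, or 21.5 CPM and 8.19 CPM per kb, which is 4.86 times Hdac1 per kb. Those 8 exons are of the longest coding transcript of Hdac2. The coding sequence compared below is of another Hdac2 transcript, so the exon counts of Hdac1 and Hdac2 are not a comparison of the genes. Hdac3, a class I deacetylase best known from the NCoR and SMRT complexes, was higher still at 15.7 CPM per kb, 9.32 times Hdac1 and 1.92 times Hdac2.

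The low level of Hdac1 stood beside a property of its sequence that Hdac2 and Hdac3 do not have. Of the 1989 distinct 50-base stretches in the coding transcript of Hdac1, 1167 (58.7%) also occur in another annotated gene, a share that 2.78% of 15784 genes reach. Hdac2 and Hdac3 share 0 of theirs. Most of the Hdac1 overlap, 1121 stretches, is with the processed pseudogene Gm10093, a copy without introns that RefSeq names Hdac1-ps (chr17:78491565-78493541), 171 are with the processed pseudogene AC125456.1 and 156 with Gm4864 (chr12:77623154-77625026). None of these was matched to a row of the table used here. Over 1444 aligned bases Gm10093 is 99.4% identical to the Hdac1 coding sequence, with 9 differing bases and an identical run of up to 450 bases. How reads that match several places were counted is not given in the sources used here, so the level of Hdac1 is uncertain. With the length reduced to its unshared share and the CPM kept, Hdac1 came to 4.08 CPM per kb and Hdac2 stayed above it, at 8.19. The part of the shared stretches in the level of Hdac1 was not tested.

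The next lines show a coding stretch from exon 2 of Hdac1 (chr4:129534638-129534697, minus strand) beside the aligned stretches of Hdac2 (exon 2, chr10:36985156-36985215, plus strand) and Gm10093 (chr17:78491660-78491719, plus strand). They are printed because here Hdac1 differs from its paralog Hdac2 at several bases and from the pseudogene at none. The stretch was taken where only Gm10093 among the copies is identical. Capitals in Hdac1 and Hdac2 mark the 51 bases these share, and capitals in Gm10093 mark bases identical to Hdac1, which are all 60.
Hdac1: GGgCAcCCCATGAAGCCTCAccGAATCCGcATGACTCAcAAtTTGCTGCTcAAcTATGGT
Hdac2: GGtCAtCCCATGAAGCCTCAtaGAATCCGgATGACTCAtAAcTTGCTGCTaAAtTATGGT
Gm10093: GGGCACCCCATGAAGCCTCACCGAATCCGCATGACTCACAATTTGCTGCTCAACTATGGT

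**Figure D2:**
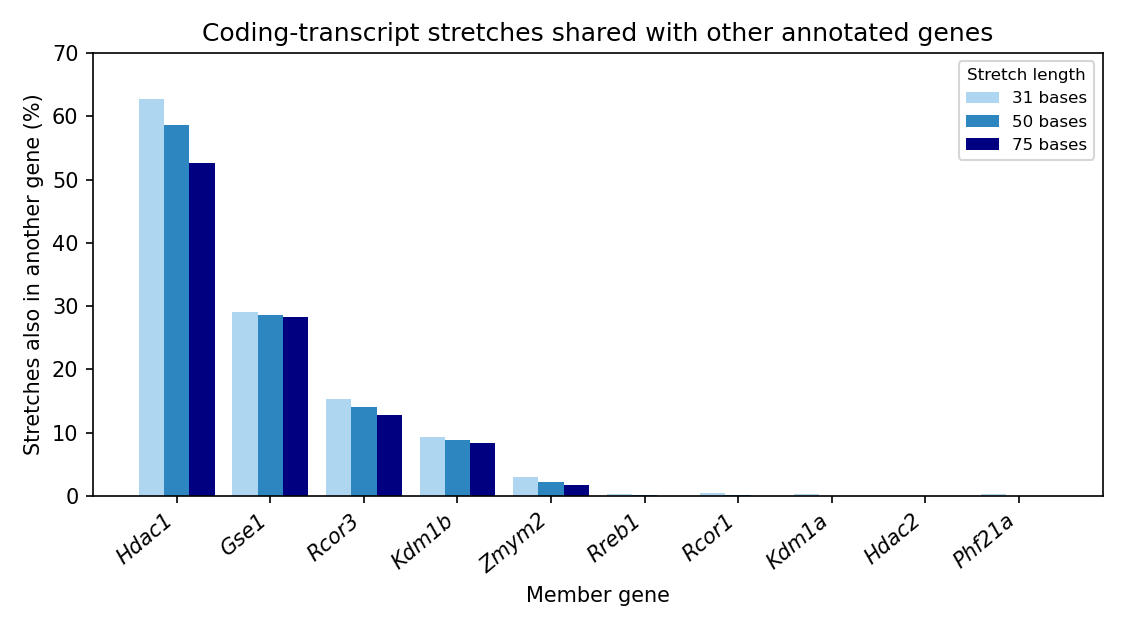
Share of distinct stretches in each gene's coding transcripts that another annotated gene also holds, in percent, for stretches of 31, 50 and 75 bases. Hdac1 is highest at every length, from 62.7% to 52.5%, followed by Gse1, Rcor3, Kdm1b and, at 2.20% for 50 bases, Zmym2, and the remaining genes are near 0.

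In Gse1, Rcor3 and Kdm1b, which follow Hdac1 in that plot, the shared stretches lay where neighbours overlap them on the opposite strand. Whether counting used strand is not given, so reads from such a stretch cannot be assigned to one gene. Gse1 shares 2758 exonic bases, 28.1% of its coding transcripts, with Gins2, a subunit of the replicative GINS complex that was itself at 0.275 CPM. Kdm1b shares 505 bases (9.94%) with Dek, a chromatin protein at 49.3 CPM, and Rcor3 shares 667 bases (14.8%) with the antisense gene Gm26879 and 82 with Gm10516, at 3.36 CPM. Zmym2 shares 161 stretches (2.20%) with its paralog Zmym5, at 43.3 CPM. Kdm1a, Hdac2 and Phf21a share no 50-base stretch, whereas the median gene shares 0.0602% and 49.0% of genes share none. The part of these overlaps in the levels was not tested.

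The accessory genes held the highest and some of the middle levels. Rreb1 (Entrez 68750, chr13:37778382-37952005, plus strand, 13 exons), a large zinc finger transcription factor that binds Ras-responsive elements, led the set with a base mean of 1471, or 71.2 CPM and 16.5 CPM per kb. It ranked 1 or 2 under every length tried and lay at the 89.9th percentile of all 18442 genes above 0 by CPM and, per kb, at the 76.3rd of the 15784 with a coding length. Zmym2 (Entrez 76007, chr14:56886529-56962358, plus strand, 24 exons), a MYM-type zinc finger protein that binds SUMO, had a base mean of 723, or 35.0 CPM and 8.48 CPM per kb, and ranked between 2 and 4. Both lay above Kdm1a and the scaffolds under every length tried, and Zmym2 was below Hdac2 by the longest transcript, at 5.02 against 6.62 CPM per kb, and by the union of exons, at 4.45 against 4.81.

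Phf21a and Gse1 were in the middle of the order. Phf21a (Entrez 192285, chr2:92183751-92364667, plus strand, 17 exons), whose PHD finger reads unmethylated lysine 4 of histone H3, the product of LSD1, had a base mean of 285, or 13.8 CPM and 6.59 CPM per kb. Its 18 coding transcripts vary in length, and with the longest its level was 2.18 CPM per kb. Gse1 (Entrez 382034, chr8:120228501-120581383, plus strand, 16 exons), a coiled-coil protein found with LSD1 and CoREST, had a base mean of 468, or 22.6 CPM and 4.97 CPM per kb. Gse1 spans 353 kb and has the coding sequence richest in G and C of the 10, at 62.8%, while Zmym2 has the poorest at 41.3%.

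Beside related chromatin genes, the set was at intermediate levels per kb. The list of 8 other LSD1 and CoREST genes held the HMG proteins, the CtBP corepressors and also Hdac3, which is best known from other complexes. Its median was 7.46 CPM per kb, from Rcor2 at 0.0326 to Ctbp1, a corepressor that senses NADH, at 25.6. All but 1 of the 8 genes reached 1 CPM. By the longest transcript Hdac3 was the highest of this list at 15.7 and Ctbp1 was at 10.2, and the median of the list was 3.15, just under the 3.34 of the 10 genes. The DNA-binding proteins listed as recruiters of LSD1 had a much lower median. Of the 8 listed, 7 were measured, and 2 of the 7 reached 1 CPM. Their median was 0.231 CPM per kb, from Gfi1b, a blood cell repressor, at 0.0045 to Zfp516, an activator of brown fat genes, at 9.58. The transcription factor Rreb1 was counted among the 10 genes instead, so the list does not hold all such proteins. Zfp516 was at only 0.949 by the longest transcript, where Rest, the repressor of neuronal genes, was the highest recruiter at 1.34. All 11 subunits of NuRD, a remodelling and deacetylase complex that shares HDAC1 and HDAC2 with CoREST, reached 1 CPM. Their median was 17.4 CPM per kb, from Gatad2b at 3.75 to the histone chaperone Rbbp4 at 50.5. By the union of exons Rbbp7 was the highest subunit, at 20.9, and Rbbp4 was at 13.9.

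Partners of LSD2 were above LSD2 itself at the median. The 4 measured of 5 listed names (Whsc1l1 is an older name of Nsd3) had a median of 16.3 CPM per kb, from the H3 lysine 9 methyltransferase Ehmt1 at 6.01 to Glyr1, the cofactor that LSD2 needs on nucleosomes, at 30.9, where Kdm1b was at 11.3. The 17 measured of 18 other histone H3 lysine demethylases all reached 1 CPM with a median of 4.97 CPM per kb, close to Kdm1a, from Kdm2b at 1.87 to Kdm2a at 37.0. Kdm2a was at 7.64 by the longest transcript and 4.53 by the union of exons, and Kdm5c, a demethylase of H3 lysine 4, was then the highest, at 9.14 and 8.29. Of the 8 other histone deacetylases listed, 7 reached 1 CPM, with a median of 3.46 CPM per kb, from Hdac9 at 0.188 to Hdac11 at 57.9. Hdac11 was thus the most abundant deacetylase listed, above Hdac3, Hdac2 and Hdac1, also by the longest transcript (27.3) and the union of exons (18.8).

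**Figure D3:**
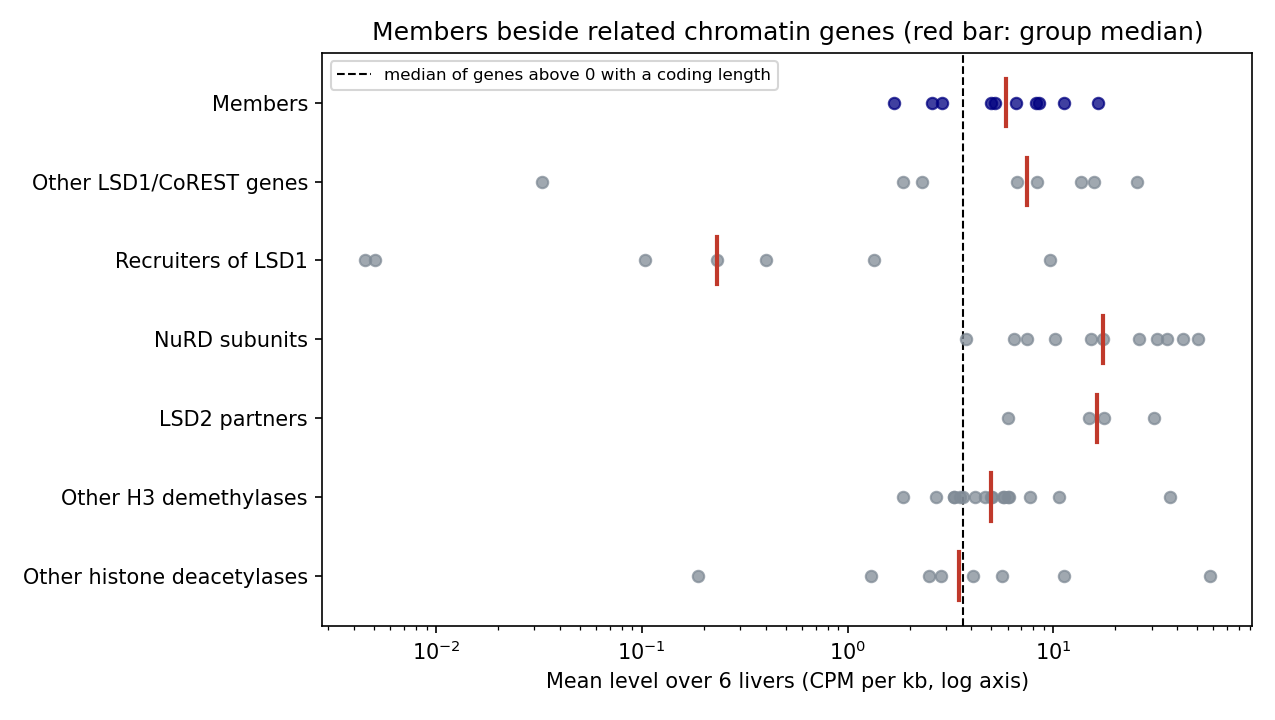
Mean level over 6 livers in CPM per kb on a log axis, with 1 point per gene, for the 10 genes and 6 related lists. Red bars are medians and the dashed line is the median of genes above 0 with a coding length, 3.62. Lengths are those of the median coding transcript. The 10 genes lie between 1.68 and 16.5, NuRD subunits have the highest median at 17.4, and the recruiters of LSD1 the lowest at 0.231.

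The labelled tissue matched its markers. The 8 hepatocyte markers summed to 109667 CPM, with albumin (Alb) at 77578 CPM, against 155 CPM for 5 Kupffer cell and macrophage markers, 135 CPM for 5 endothelial markers and 257 CPM for 5 stellate cell and fibroblast markers. The 4 cholangiocyte markers summed to 7.02 CPM, 4 lymphocyte markers to 1.21, 3 neutrophil markers to 1.07 with Ly6g at 0, and the 2 measured of 4 muscle and adipose markers to 0.0408. Of the erythroid markers Hba-a1 was listed at 0 and Hbb-bs at 22.3 CPM. How reads that match several places were counted is not given, so a listed 0 need not mean that the RNA was absent. The levels are from whole liver, so RNA from these cells is mixed with that of hepatocytes, and fewer cells of a type and less RNA per cell cannot be told apart.

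The start sites of the genes lay mostly in CpG-rich sequence. RefSeq windows of 300 bases around annotated starts on GRCm38 matched 9 of the 10 genes in 16 windows, all but Hdac1. Their median was 29 CpG and 67.7% G and C, against 7 CpG and 52.7% over all 32851 windows. Those windows include genes below 1 CPM and were not matched for level, so the difference cannot be read as particular to the set. Genes with several windows counted more than once. Rcor3 had the most, 47 CpG, a number that 1.44% of all windows reach, and Kdm1a had 29, which 12.9% reach. Phf21a and Rreb1 also had windows with 1 and 2 CpG further along the gene.

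Motifs were searched in the same windows on both strands, with letters chosen after levels had been seen, because the study examined binding of NRF1 and GABPα. A core of the NRF1 motif, GCGCATGCG, was in 0 of 16 windows and in 1.75% of all windows, and the ETS motif CCGGAAGT was in 0 of 16 and in 3.89% of all. The TATA motif TATAAA was in 1 window of Phf21a (chr2:92221222-92221521) and in 13.6% of all windows. These counts describe the letters in these windows only.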

How the data were processed

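Liver poly-A RNA of 3 Control and 3 LSD1-LKO mice was sequenced. STAR was used by the authors for mapping to mm10, StringTie for transcript assembly and DESeq2, run on Galaxy, for normalization. The sources used here do not give versions, strand or how reads with several matches were treated. The gene models the authors counted on may differ from those used here for lengths and shared stretches. The signal deposited by the authors, base mean, is the average of normalized counts over the 6 livers. The 5 columns of the authors' comparison (fold change, its error, Wald statistic, p-value and adjusted p-value) were not used, and 0 columns with values per sample were left unused. Depth per liver is unknown, and the base means sum to 2.07e+07.

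CPM is the base mean over that sum times 1000000. Transcript lengths, shared stretches of 50 bases and coding alignments came from GENCODE vM21 (Biopython 1.88, pandas 2.3.3, numpy 2.4.6, matplotlib 3.10.9, Python 3.11.15), and promoter windows from RefSeq. Exon counts are of the longest coding transcript. Coding sequences, and the exon numbers of the stretches shown, are of the transcript with the longest coding sequence. For Rcor3, Hdac2 and Phf21a these are different transcripts. The stretch search was tested on simulated data. Named genes are the 10 members, the highest and lowest per kb of each related list, Rcor2 and Hdac3, and genes that share sequence with a member. The members and lists were chosen with earlier results of these data known, and promoter motifs after levels were seen; the NRF1 motif was first searched with 1 letter more, with 0 matches in the members. Alternatives are given at the end.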

Additional observations from a re-analysis of the deposited data

How the results depend on the processing

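Levels have no replicate spread, so a value counts as moved when it changed after rounding to 3 significant digits. With the longest coding transcript, the union of exons, no division by length and, as a choice made after seeing the data, only unshared length with the CPM kept, the ratio of Kdm1a to Kdm1b was 0.520, 0.335, 0.316 and 0.416 and that of Hdac1 to Hdac2 was 0.254, 0.207, 0.160 and 0.498. In the same order Rcor1 to Rcor3 was 1.94, 6.96, 2.91 and, turning its direction, 0.965. The median level of the 10 genes was 3.34, 2.16 and 6.78 CPM per kb with the longest, union and unshared lengths and 17.7 CPM without length, and the highest over the lowest was 7.70 with the longest, 20.1 with the union, 5.74 with the unshared length and 20.7 without length. The median CPM was 18.7 without genes of the mitochondrial genome and 21.6 without the 10 most abundant genes. The median percentile was 68.3 and fell to 50.8 among genes of at least 1 CPM. The share of Hdac1 stretches found elsewhere was 62.7% for 31 bases and 52.5% for 75. Local alignment gave a coding identity of 72.3% over 83 bases for Kdm1a and Kdm1b, 72.0% for Rcor1 and Rcor3, and 76.2% for Hdac1 and Hdac2. Of the values for single members, 79 moved and 9 did not. Leaving out length, another sum for CPM or fewer genes for percentiles changes such values by construction, so this count does not measure robustness. The other lengths for related genes were added after seeing the data.

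No paired analysis was possible because the table holds no value per liver. For the same reason the planned edgeR and limma fits, and their alternatives (size factors of another tool, other filters and pseudocounts, leaving out a replicate, a replicate block), were not run. Protein identity was replaced by coding-sequence identity. Depth, replicate error and the effect of the deletion on these genes cannot be read from a pooled mean.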
